A study of Caenorhabditis elegans with 18 samples.

Results

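The cytochrome P450 genes of the nematode Caenorhabditis elegans were taken as every row of the deposited gene tables whose gene name begins with cyp- and a number. There were 80 such rows among 45461, and 6 of the 80 are annotated as pseudogenes. Of the 80, 43 lie on chromosome V, 13 on II, 9 on IV, 8 on X, 6 on III and 1 on I. RNA with a poly(A) tail was sequenced from whole animals of hira-1(-), which carries the allele gk835598 described by the submitters as a null, and of N2, the standard wild-type strain. HIRA belongs to a chaperone complex that places histone H3.3 into nucleosomes outside DNA replication. Both strains were kept on agar plates with cholesterol and Escherichia coli OP50 as food, and no other treatment is labelled. The labels list 18 libraries, 3 for each genotype at L1, at L4 (the last larval stage) and in adults. Of these, 8 could be tied to columns of the tables, namely 2 hira-1(-) adult, 2 N2 adult, 2 hira-1(-) L4 and 2 N2 L4 libraries. The labels do not say whether replicates were separate cultures, so p-values measure the spread between these libraries, which may be technical.

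Cytochrome P450 enzymes are heme proteins that insert an oxygen atom into lipids, hormones and foreign compounds, using electrons passed on by a reductase and, for some enzymes, by cytochrome b5. In C. elegans the family is large and many members are expressed in the intestine, where several, above all the CYP35 genes, are induced by foreign compounds. Other members act on the animal's own molecules, for example on polyunsaturated fatty acids, on lipids of the eggshell and, in the case of DAF-9, on the steroid hormone dafachronic acid. The genome carries many of these genes side by side in tandem arrays of near relatives.

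Estimated counts summed to between 26010307 and 31174599 in a library. The hira-1 transcript itself stood at 40.7 and 40.0 CPM in hira-1(-) adults, against 108 and 109 CPM in N2 adults. It stood at 23.7 and 25.3 CPM in hira-1(-) L4 larvae, against 37.4 and 32.9 CPM in N2 L4 larvae, and it was lower in the mutant at both stages (log2 fold change -1.43 ± 0.06 in adults and -0.52 ± 0.07 at L4, SE). CPM here is the estimated count relative to the library size after TMM scaling, and it serves to compare libraries. Comparisons between genes use FPKM, which is per length of transcript. All calls come from edgeR's quasi-likelihood test of 16770 genes with Benjamini-Hochberg adjustment and a threshold of 0.05, and 64 of the 80 P450 genes passed its filter on low counts. In whole animals, fewer cells of a type and less RNA per cell cannot be told apart.

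The P450 RNA of adults was led by CYP31A genes in both genotypes, and that of L4 larvae by CYP35 genes. In hira-1(-) adults cyp-31A2 had 66.7 and 63.2 FPKM, followed by cyp-31A5 with 50.4 and 53.3 FPKM and cyp-31A3 with 43.0 and 44.3 FPKM. In N2 adults the same 3 genes led in the same order, with 65.6 and 66.0, 52.2 and 54.8, and 41.6 and 40.2 FPKM, and neighbours in that order did not overlap in either genotype. Reads were divided between these near relatives, as described below, so the order among the 3 is uncertain even without overlap. The fourth place differed: cyp-44A1, a P450 of the mitochondrial type, held it in hira-1(-) adults (33.9 and 31.6 FPKM) and cyp-35A2 held it in N2 adults (33 and 36.6 FPKM), where its libraries overlapped those of cyp-44A1 (33.7 and 31.7 FPKM). At L4, cyp-35A2 had 41.2 and 44.4 FPKM in hira-1(-), where it overlapped cyp-35C1 at 33.8 and 42.3 FPKM. In N2 L4 larvae cyp-35A2 had 96.4 and 99.2 FPKM and cyp-35C1 73.2 and 66.1 FPKM, without overlap. The third place at L4 went to cyp-42A1 in hira-1(-) (23 and 22.6 FPKM) and in N2 (26.8 and 26.7 FPKM), although in hira-1(-) it overlapped cyp-31A1 in the fourth place (23.3 and 22 FPKM). A mean of at least 1 FPKM was reached by 43 P450 genes in hira-1(-) adults, 38 in N2 adults, 47 in hira-1(-) L4 larvae and 47 in N2 L4 larvae.

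The make-up of the summed P450 signal differed between genotypes at both stages. The 11 CYP35 genes held 24.9% of the summed P450 FPKM in hira-1(-) L4 larvae, against 45.1% in N2 L4 larvae, and 9.06% in hira-1(-) adults, against 17.9% in N2 adults. The 4 CYP31A genes held 17.9% in hira-1(-) L4 larvae, against 6.31% in N2 L4 larvae, while in adults the shares were 40.5% in hira-1(-) and 39.4% in N2. The 12 CYP13A genes held 5.50% in hira-1(-) L4 larvae and 2.37% in N2 L4 larvae, and 4.35% in hira-1(-) adults and 1.74% in N2 adults. The 6 CYP25A genes held 5.06% in hira-1(-) adults and 8.38% in N2 adults, and 4.39% in hira-1(-) L4 larvae and 4.52% in N2 L4 larvae. Summed over all 80 genes, the level at L4 was 636 and 659 CPM in hira-1(-), against 833 and 857 CPM in N2. The adult sums depended on the scale: 627 and 631 CPM in hira-1(-) stood below 704 and 717 CPM in N2, whereas the sums of FPKM, which carry no TMM factor, were 429 and 433 in hira-1(-) and 417 and 429 in N2.

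Between genotypes, P450 genes moved in both directions at both stages, and more of them passed the test at L4 than in adults. In adults 39 of the 64 genes tested passed, 22 higher and 17 lower in hira-1(-), while 55.1% of all genes tested passed, 28.6% higher and 26.5% lower. At L4, 47 of 64 passed, 24 higher and 23 lower, while 58.0% of all genes passed, 35.5% higher and 22.6% lower. The adult share of 60.9% therefore lay near the background, and the L4 share of 73.4% above it, mostly among the lower genes (35.9%). The P450 changes between genotypes had a larger median size than those of all genes, which were not matched for level. The median size of a log2 fold change, whatever its sign, was 0.85 in adults, against 0.41 over all genes, and 0.85 at L4, against 0.43 over all genes. Between stages the median size was 0.93 in N2, against 1.09 over all genes, and 0.81 in hira-1(-), against 0.75. The signed medians between genotypes were 0.38 in adults and 0.22 at L4, against 0.03 in adults and 0.10 at L4 over all genes. Past the test and at least 2-fold were 17 higher and 8 lower genes in adults (15.2% and 6.28% of all genes) and 15 higher and 14 lower at L4 (11% and 5.80% of all genes). The libraries of the genotypes did not overlap for 31 higher and 23 lower genes in adults (41.1% and 37.8% of all genes) and for 32 higher and 25 lower at L4 (46.5% and 32.4%). With library totals in place of TMM the adult split was 28 higher and 11 lower, and the median of all genes moved to 0.24 at both stages, so that small adult decreases are read below against that shift. At L4 the median of all genes was -0.01 when only the L4 libraries were fitted, with 19 higher and 23 lower P450 genes.

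**Figure D1:**
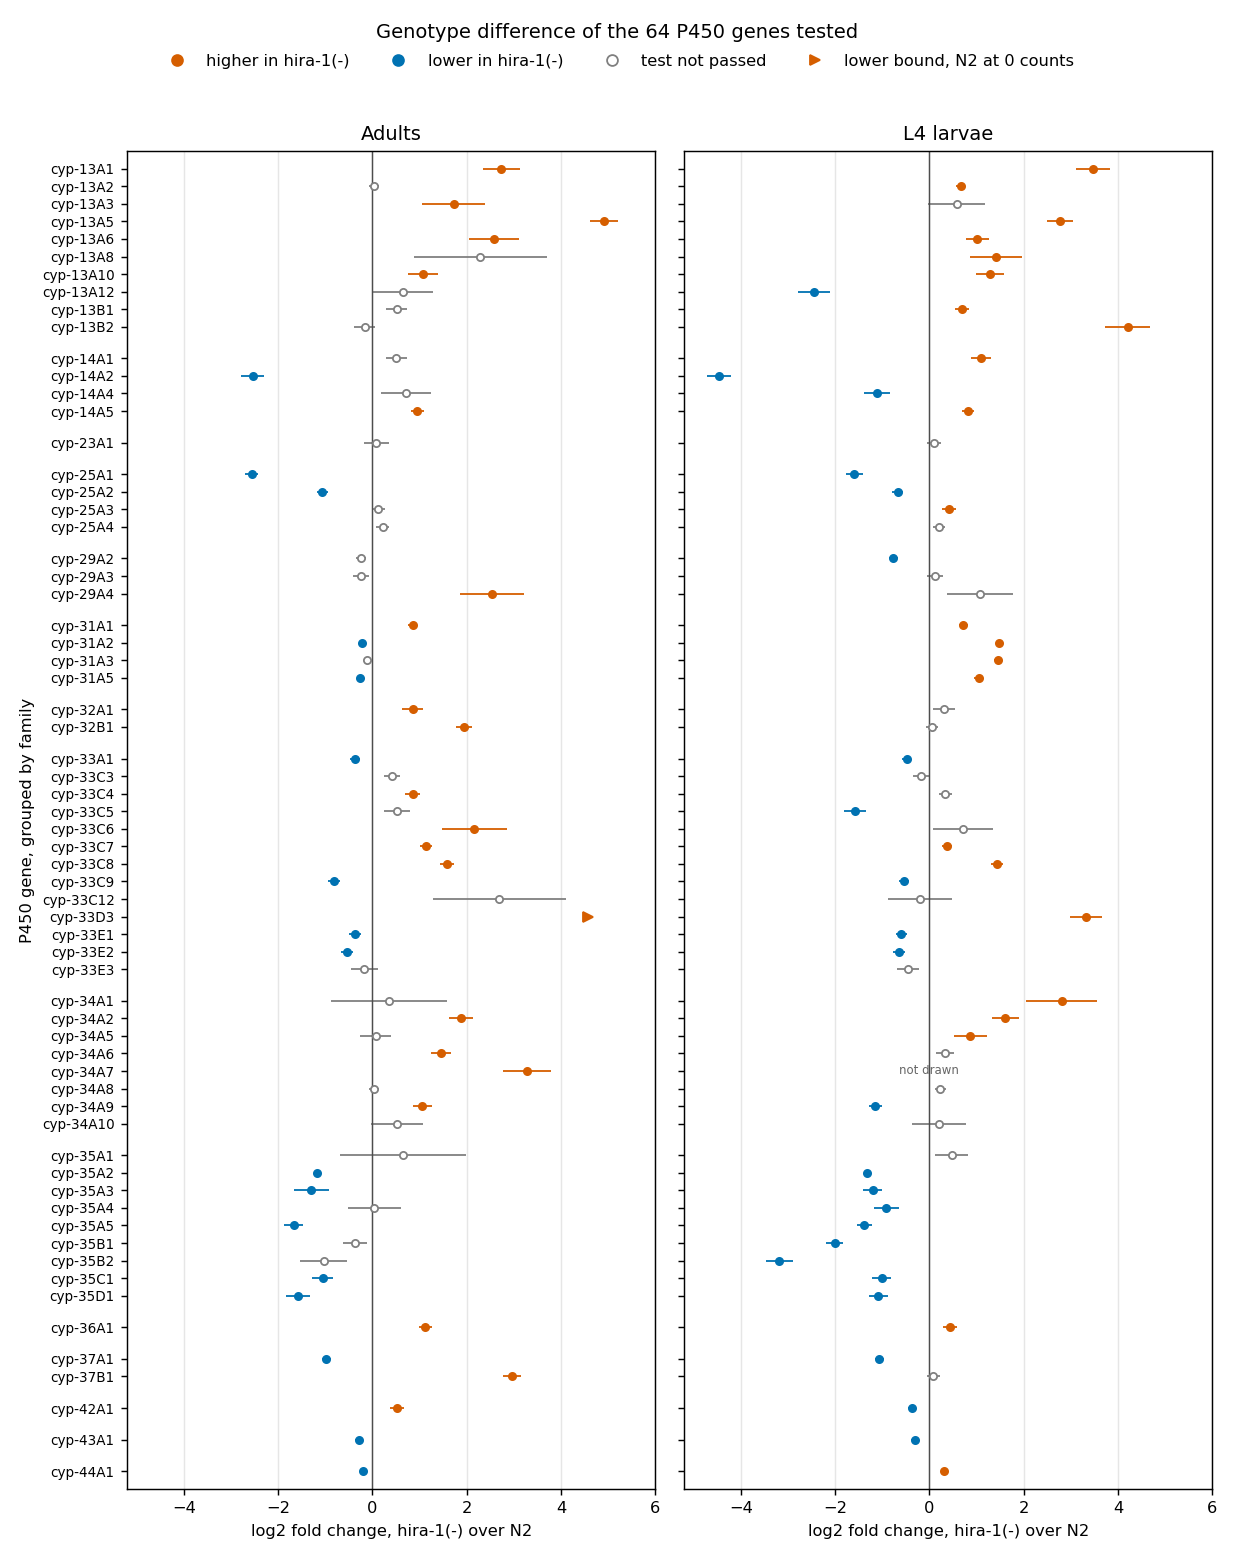
Log2 fold change of hira-1(-) over N2 for the 64 P450 genes tested, in adults (left) and at L4 (right), on a linear axis of log2 values with families from top to bottom; points are edgeR estimates, bars 1 SE, filled points passed the test, and the triangle for cyp-33D3 is a lower bound because both N2 adult libraries were at 0. The CYP35 genes that passed all lie left of 0, and the CYP13A genes that passed lie right of 0 except cyp-13A12 at L4; cyp-34A7 at L4 is not drawn because its counts were at the floor.

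Read across stages, 12 genes were higher in hira-1(-) both in adults and at L4, and 14 were lower at both (12.7% and 9.49% of all genes). Another 8 were higher in adults with no call at L4, and 9 were higher and 7 lower at L4 with no call in adults. For these classes, and for genes with no call at either stage, the share over all genes was not counted. These numbers are therefore description only. The direction was opposite for 5 genes: cyp-34A9 and cyp-42A1 were higher in adults and lower at L4 (5.17% of all genes), and cyp-31A2, cyp-31A5 and cyp-44A1 were lower in adults and higher at L4 (8.12%). No call was made at either stage for 9 genes, namely cyp-23A1, cyp-25A4, cyp-29A3, cyp-33C3, cyp-33C12, cyp-33E3, cyp-34A8, cyp-34A10 and cyp-35A1. The adult and L4 comparisons use separate libraries but share the estimate of the spread.

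The CYP35 genes, the family best known in C. elegans for its response to foreign compounds, were lower in hira-1(-) wherever they passed the test. At L4, 8 of the 9 tested members were lower and none higher, and in adults 5 of 9 were lower and none higher. At an unadjusted p under 0.05, with DESeq2 and with limma the higher members also numbered 0 at both stages. Of all genes tested, 22.6% were lower and 35.5% higher at L4, and 26.5% were lower and 28.6% higher in adults. Some members share reads, as given below, so the 9 are not independent results. The 11 CYP35 genes were also summed. Their summed level was 57.0 and 64 CPM in hira-1(-) adults, against 120 and 150 CPM in N2 adults, and 147 and 178 CPM in hira-1(-) L4 larvae, against 363 and 399 CPM in N2 L4 larvae. The other 2 of the 11 members, cyp-35B3 and the pseudogene cyp-35D2, had too few counts to be tested.

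The highest member was cyp-35A2, a gene linked to fat storage as well as to foreign compounds. It had 26.7 and 29.7 CPM in hira-1(-) adults, against 60.7 and 66.8 CPM in N2 adults, and 61.3 and 65.9 CPM in hira-1(-) L4 larvae, against 159 and 161 CPM in N2 L4 larvae. All 4 mutant libraries lay below the N2 libraries of their stage, and the log2 fold change was -1.18 ± 0.07 in adults (adjusted p 1.85e-08) and -1.33 ± 0.06 at L4 (adjusted p 2.62e-09). The next in level, cyp-35C1, had 19.9 and 23.4 CPM in hira-1(-) adults, against 36.8 and 53.0 CPM in N2 adults, and 47.9 and 59.9 CPM in hira-1(-) L4 larvae, against 115 and 102 CPM in N2 L4 larvae. It fell by about the same amount at both stages, with log2 fold changes of -1.05 ± 0.23 in adults (adjusted p 0.0130) and -1.01 ± 0.20 at L4 (adjusted p 0.00910). Its replicates were more spread than those of cyp-35A2: the adult call was lost without hira-1(-) adult replicate 1 (-0.94, adjusted p 0.0729) and the L4 call without N2 L4 replicate 1 (-1.04, adjusted p 0.0657).

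The remaining genes lower at both stages were cyp-35A5, cyp-35A3 and cyp-35D1. For cyp-35A5 the libraries held 3.78 and 4.03 CPM in hira-1(-) adults, against 10.5 and 14.4 CPM in N2 adults, and 14.4 and 16 CPM in hira-1(-) L4 larvae, against 44.6 and 34.3 CPM in N2 L4 larvae. Its log2 fold change was -1.67 ± 0.20 in adults (adjusted p 6.09e-05) and -1.38 ± 0.15 at L4 (adjusted p 3.24e-05). The gene cyp-35D1, known for metabolising the drug thiabendazole, had 2.67 and 2.53 CPM in hira-1(-) adults, against 5.89 and 9.51 CPM in N2 adults, with a log2 fold change of -1.58 ± 0.25 (adjusted p 0.000513). At L4 cyp-35D1 had 6.19 and 7.66 CPM in hira-1(-), against 16.4 and 13 CPM in N2, with a log2 fold change of -1.08 ± 0.21 (adjusted p 0.00129). The hira-1(-) libraries of both genes lay below all N2 libraries of the stage. In the case of cyp-35A3, 9.29 and 15.6 CPM in hira-1(-) L4 larvae stood against 29.4 and 27.8 CPM in N2 L4 larvae (log2 fold change -1.20 ± 0.20, adjusted p 0.000994), and 1.00 and 1.46 CPM in hira-1(-) adults against 3.04 and 3.01 CPM in N2 adults (-1.29 ± 0.37, adjusted p 0.0165). The adult call of cyp-35A3 was lost without hira-1(-) adult replicate 1 (-1.04, adjusted p 0.0987), N2 adult replicate 1 (-1.34, 0.0711), N2 adult replicate 2 (-1.30, 0.0847) or N2 L4 replicate 1 (-1.33, 0.0627).

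A further 3 genes passed at L4 and not in adults, and the CYP35B genes had the largest decreases of the family at L4. For cyp-35B2, hira-1(-) L4 larvae had 0.854 and 0.766 CPM, against 9.41 and 5.21 CPM in N2 L4 larvae, a log2 fold change of -3.18 ± 0.29 (adjusted p 1.64e-06). For cyp-35B1, a gene found downstream of the FOXO factor DAF-16, hira-1(-) L4 larvae had 2.77 and 3.46 CPM, against 14.7 and 10.6 CPM in N2 L4 larvae, a log2 fold change of -2.01 ± 0.18 (adjusted p 8.78e-07). Adult levels of cyp-35B1 were 1.82 and 1.61 CPM in hira-1(-) and 2.25 and 2.19 CPM in N2, a difference that did not pass (log2 fold change -0.37, adjusted p 0.224). In adults cyp-35B2 had 0.334 and 0.377 CPM in hira-1(-), against 0.752 and 0.718 CPM in N2, a log2 fold change of -1.04 near the threshold (adjusted p 0.0981), which passed when only the adult groups were fitted (0.0378), with the replicate block (0.0469) and without either N2 L4 library (0.0228 and 0.0190). The difference between the stages was itself past the test for both, at 1.64 ± 0.30 for cyp-35B1 (adjusted p 0.000702) and 2.14 ± 0.57 for cyp-35B2 (adjusted p 0.0137). The cyp-35B2 difference was lost without hira-1(-) adult replicate 1 (adjusted p 0.0538), hira-1(-) adult replicate 2 (0.0822) or N2 adult replicate 2 (0.0518). At L4 cyp-35A4 was lower as well (2.62 and 5.50 CPM in hira-1(-), 8.09 and 7.23 CPM in N2, log2 fold change -0.91, adjusted p 0.0167), and its value rested on single libraries: -0.47 without hira-1(-) L4 replicate 1 (adjusted p 0.0750), -1.56 without hira-1(-) L4 replicate 2 and -0.95 without N2 L4 replicate 1 (adjusted p 0.0561). The only tested member with no call at either stage was cyp-35A1, whose libraries overlapped at L4 (1.85 and 2.96 CPM in hira-1(-), 2.23 and 1.26 CPM in N2). RSEM estimates of cyp-35A1 to cyp-35A4 were not whole numbers in 7 of the 8 libraries, so these close relatives share reads with other sequences and the division between them is uncertain.

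**Figure D2:**
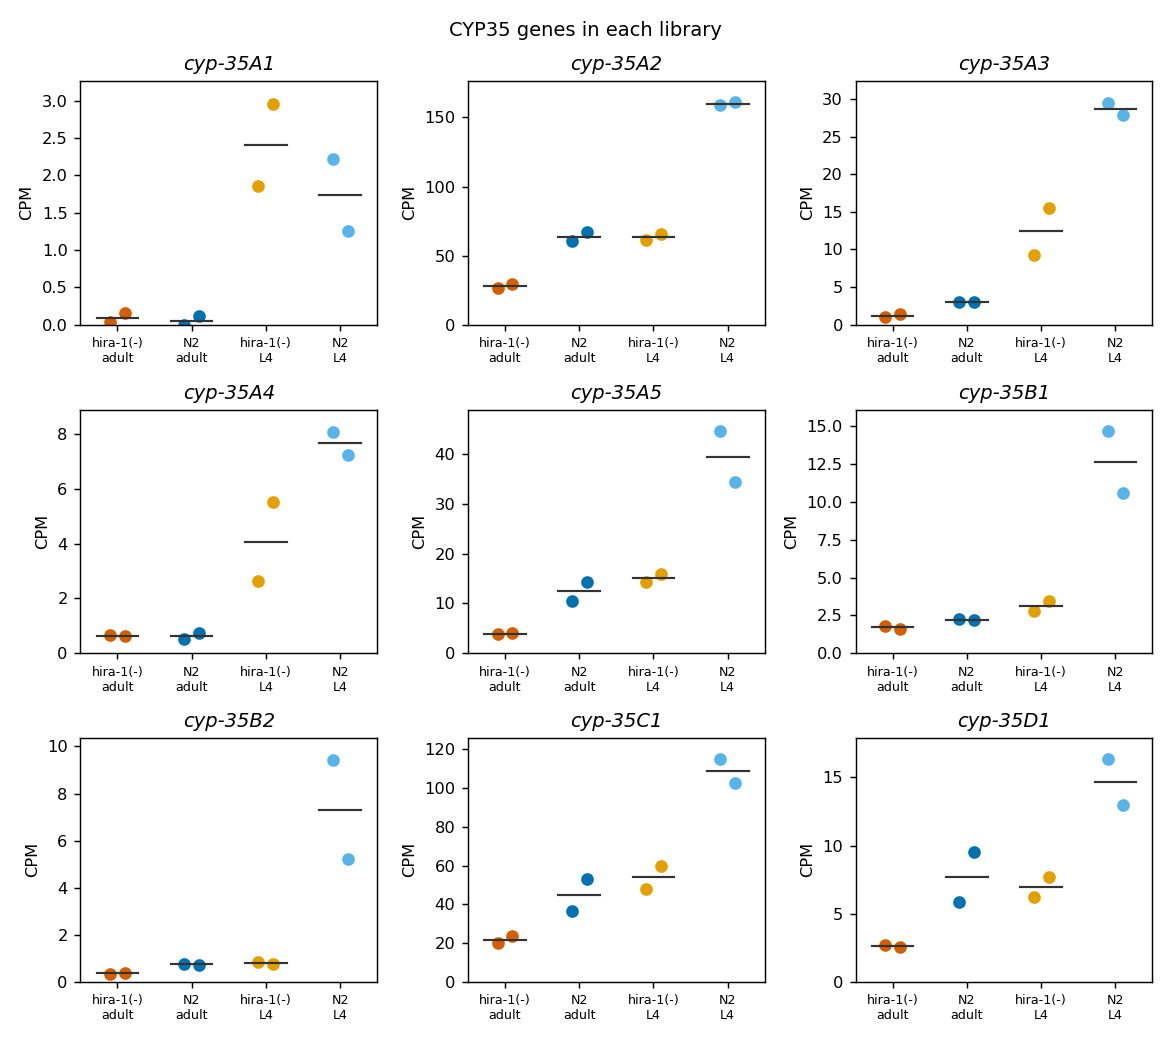
Level in CPM (linear axis from 0) of the 9 CYP35 genes tested, 1 point for each library and a line at the mean of each group, with hira-1(-) adults, N2 adults, hira-1(-) L4 and N2 L4 from left to right. The hira-1(-) points lie below the N2 points of the same stage for cyp-35A2, cyp-35A3, cyp-35A5, cyp-35C1 and cyp-35D1, and the adult levels are below the L4 levels within each genotype.

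Markers of the intestine, the tissue in which CYP35 genes are mainly expressed, moved in opposite directions at the 2 stages. Of 13 intestinal genes, 7 were higher and 3 lower in hira-1(-) adults, where their summed level was 3855 to 4091 CPM, against 3048 to 3269 CPM in N2 adults. At L4, 2 were higher and 8 lower in hira-1(-), where the sum was 5546 to 5721 CPM, against 6440 to 7029 CPM in N2. None of the 13 was at 0. The adult CYP35 decreases thus stood beside a higher intestinal sum and the L4 decreases beside a lower sum, and the part of tissue amount in these results was not tested.

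Outside the CYP35 family the deepest decrease at L4 was that of cyp-14A2, of a subfamily with members inducible by foreign compounds. It had 1.19 and 0.565 CPM in hira-1(-) adults, against 5.29 and 4.99 CPM in N2 adults, and 0.474 and 0.363 CPM in hira-1(-) L4 larvae, against 9.29 and 9.37 CPM in N2 L4 larvae. The mutant libraries were far below the N2 libraries at both stages, with a log2 fold change of -2.54 ± 0.25 in adults (adjusted p 2.36e-06) and -4.47 ± 0.26 at L4 (adjusted p 1.51e-08). The difference between stages was 1.92 (adjusted p 0.00174). Without hira-1(-) adult replicate 1, the higher of the mutant adult libraries, the adult value was -3.18 and the difference between stages 1.29 (adjusted p 0.0331).

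The adjacent genes cyp-25A1 and cyp-25A2 were also lower at both stages. For cyp-25A1, hira-1(-) adults had 2.74 and 2.60 CPM, against 15.3 and 16.4 CPM in N2 adults, and hira-1(-) L4 larvae had 1.10 and 1.28 CPM, against 3.55 and 3.63 CPM in N2 L4 larvae. The groups were far apart at both stages, the log2 fold change was -2.56 ± 0.14 in adults (adjusted p 1.14e-08) and -1.60 ± 0.18 at L4 (adjusted p 6.80e-06), and the adult decrease was the larger (difference -0.97, adjusted p 0.00448). For cyp-25A2, 16 and 16.3 CPM in hira-1(-) adults stood against 34.4 and 33.1 CPM in N2 adults (log2 fold change -1.06 ± 0.12, adjusted p 1.85e-05). At L4 cyp-25A2 had 14.8 and 14.8 CPM in hira-1(-), against 19.9 and 27.4 CPM in N2 (-0.68 ± 0.12, adjusted p 0.000549). The RSEM estimates of cyp-25A1 to cyp-25A4 were not whole in any of the 8 libraries.

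A group of genes with moderate levels was lower by about the same amount at both stages. The largest of these decreases was in cyp-37A1, with 12.4 and 10.7 CPM in hira-1(-) adults, against 24.0 and 21.5 CPM in N2 adults, and 21.0 and 18.0 CPM in hira-1(-) L4 larvae, against 40.8 and 40.4 CPM in N2 L4 larvae. Its log2 fold change was -0.97 ± 0.10 in adults (adjusted p 6.45e-06) and -1.06 ± 0.10 at L4 (adjusted p 9.64e-07). For cyp-33C9 the log2 fold change was -0.81 ± 0.13 in adults (5.90 and 6.52 CPM in hira-1(-), 10.8 and 10.9 CPM in N2, adjusted p 0.000146) and -0.54 ± 0.11 at L4 (12.7 and 10.4 CPM in hira-1(-), 16.4 and 17.2 CPM in N2, adjusted p 0.00114). The enzyme CYP-33E2, which makes epoxides of eicosapentaenoic acid, had its gene at 5.67 and 5.28 CPM in hira-1(-) adults, against 7.69 and 8.18 CPM in N2 adults, and at 6.86 and 6.75 CPM in hira-1(-) L4 larvae, against 10.1 and 11.2 CPM in N2 L4 larvae. Its libraries did not overlap at either stage, and the log2 fold change was -0.54 in adults (adjusted p 0.00303) and -0.65 at L4 (adjusted p 0.000409). The other enzyme known for that reaction, CYP-29A3, showed no call (adult log2 fold change -0.24, adjusted p 0.222, and L4 log2 fold change 0.12, adjusted p 0.564).

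Smaller decreases at both stages were seen for cyp-33E1 (-0.37 in adults and -0.60 at L4), cyp-33A1 (-0.37 in adults and -0.48 at L4) and cyp-43A1 (-0.29 in adults and -0.30 at L4). In adults these 3 calls were lost with library totals (log2 fold changes -0.16, -0.16 and -0.08) and without hira-1(-) adult replicate 2 (adjusted p 0.145, 0.0943 and 0.0912), and that of cyp-33E1 also without N2 adult replicate 1 (0.0894). The adult call of cyp-33E2 was lost with limma on the deposited log2 FPKM (-0.26, adjusted p 0.0562). At L4 cyp-43A1 lost its call with library totals (-0.16, adjusted p 0.132) or when hira-1(-) L4 replicate 1 was left out (adjusted p 0.0762).

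More genes of the CYP13A subfamily were higher than lower in hira-1(-) at both stages. In adults 5 of the 8 tested members were higher and none lower by the quasi-likelihood test (0 at an unadjusted p under 0.05, 0 with DESeq2 and 0 with limma), and at L4 6 were higher and 1, cyp-13A12, was lower. Of all genes tested, 28.6% were higher and 26.5% lower in adults, and 35.5% were higher and 22.6% lower at L4. The members with no call by the quasi-likelihood test were cyp-13A2, cyp-13A8 and cyp-13A12 in adults and cyp-13A3 at L4. DESeq2 also did not call cyp-13A3 (adjusted p 0.225) or cyp-13A10 (0.0897) in adults, nor cyp-13A6 (0.0850) or cyp-13A8 (0.293) at L4. The summed level of the subfamily was 28.7 and 31.6 CPM in hira-1(-) adults, against 13 and 13.8 CPM in N2 adults, and 35.8 and 38 CPM in hira-1(-) L4 larvae, against 18.3 and 22.6 CPM in N2 L4 larvae. The largest increase among genes measured in both genotypes was that of cyp-13A5, with 11.9 and 15.1 CPM in hira-1(-) adults, against 0.543 and 0.355 CPM in N2 adults, and 4.87 and 6.57 CPM in hira-1(-) L4 larvae, against 0.586 and 1.10 CPM in N2 L4 larvae. The mutant libraries were many times above the N2 libraries at both stages, with a log2 fold change of 4.91 ± 0.30 in adults (adjusted p 6.24e-08) and 2.77 ± 0.28 at L4 (adjusted p 4.48e-06), and the adult increase was the larger (difference 2.14, adjusted p 0.00317).

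For cyp-13A1, 1.52 and 1.36 CPM in hira-1(-) adults stood against 0.251 and 0.179 CPM in N2 adults (log2 fold change 2.73 ± 0.40, adjusted p 8.34e-05). At L4 it had 2.37 and 2.18 CPM in hira-1(-), against 0.108 and 0.294 CPM in N2 (3.48 ± 0.36, adjusted p 3.59e-06). The L4 size of cyp-13A1 depended on which N2 library was kept, at 2.82 without N2 L4 replicate 1 and 4.24 without N2 L4 replicate 2. Smaller increases at both stages were found for cyp-13A10 (log2 fold change 1.08 in adults and 1.29 at L4) and cyp-13A6 (2.58 in adults and 1.02 at L4), while cyp-13A2 was higher at L4 (0.66 ± 0.10, adjusted p 9.46e-05) with no call in adults (0.04, adjusted p 0.770). The adult call of cyp-13A10 was lost without hira-1(-) adult replicate 2 (adjusted p 0.0935) or N2 adult replicate 1 (0.115), and the L4 call of cyp-13A6 without N2 L4 replicate 1 (0.0675). Calls of cyp-13A3 in adults (adjusted p 0.0450) and of cyp-13A8 at L4 (adjusted p 0.0449) rested on under 1 CPM and were each lost in 5 of the 8 fits with a library left out, with adjusted p up to 0.172 and 0.304. The enzyme encoded by the member lower at L4, cyp-13A12, acts on polyunsaturated fatty acids in the response to a return of oxygen. The gene had 0.338 and 0.524 CPM in hira-1(-) L4 larvae, against 1.90 and 2.89 CPM in N2 L4 larvae, a log2 fold change of -2.46 ± 0.34 (adjusted p 4.15e-05), and in adults all 4 libraries were under 0.31 CPM with no call.

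**Figure D3:**
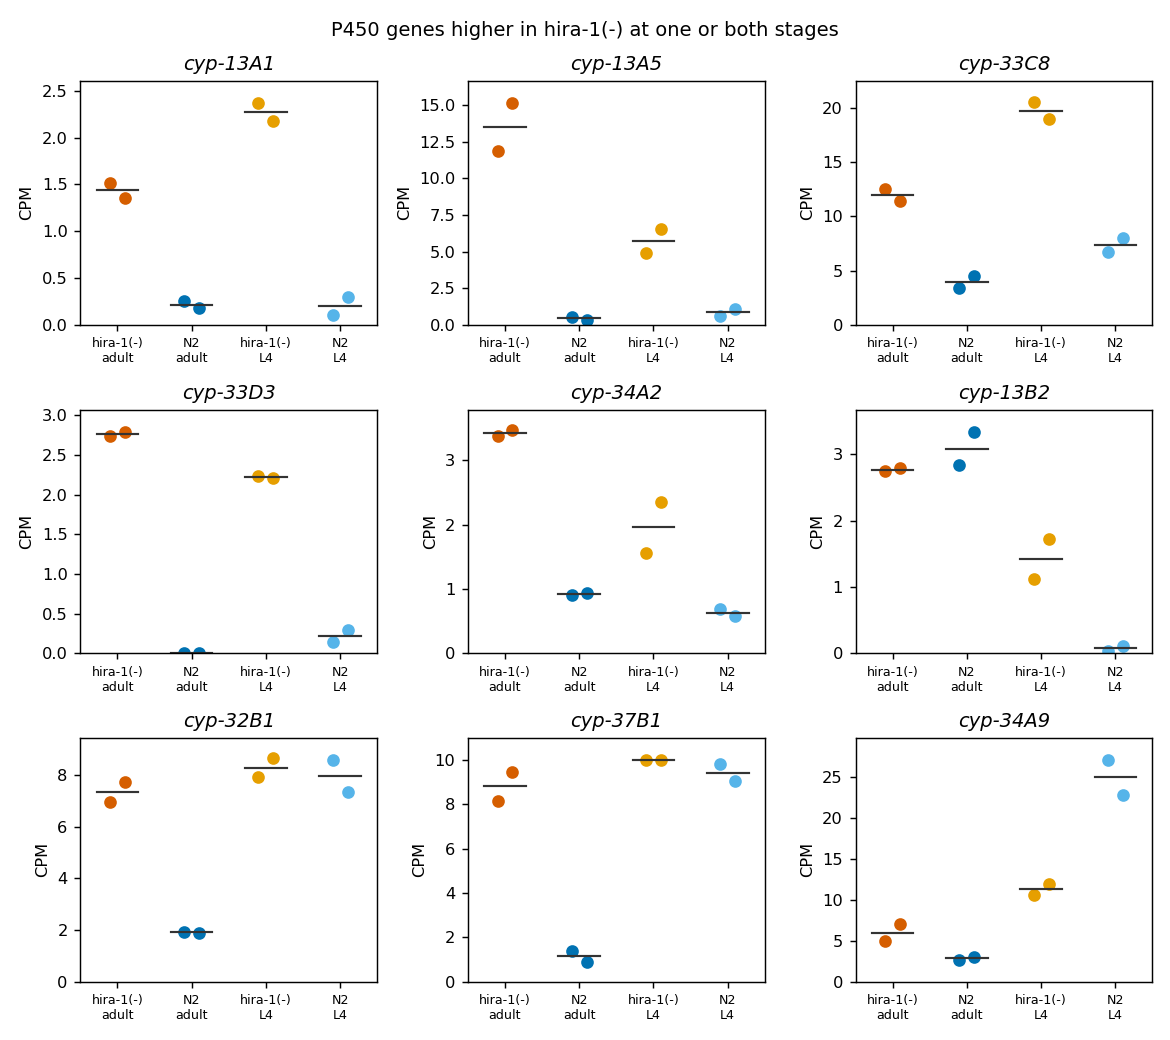
Level in CPM (linear axis from 0) of 9 P450 genes that were higher in hira-1(-) at 1 or both stages, 1 point for each library and a line at the mean of each group, with hira-1(-) adults, N2 adults, hira-1(-) L4 and N2 L4 from left to right. The hira-1(-) points lie above the N2 points at both stages in the first 5 panels; cyp-13B2 differs at L4, cyp-32B1 and cyp-37B1 in adults, and cyp-34A9 has opposite directions at the 2 stages.

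Several genes of the CYP33 and CYP34 families were higher in hira-1(-) at both stages. For cyp-33C8 the libraries held 12.5 and 11.5 CPM in hira-1(-) adults, against 3.42 and 4.48 CPM in N2 adults, and 20.6 and 19 CPM in hira-1(-) L4 larvae, against 6.70 and 7.97 CPM in N2 L4 larvae. Its increase was of like size at the stages, with log2 fold changes of 1.59 ± 0.15 in adults (adjusted p 1.50e-06) and 1.43 ± 0.13 at L4 (adjusted p 8.65e-07). The gene cyp-33D3 had 2.74 and 2.79 CPM in hira-1(-) adults and no count in either N2 adult library, which makes it at least 23.75-fold higher against a floor of 3 counts per library (log2 4.57). At L4 cyp-33D3 had 2.23 and 2.21 CPM in hira-1(-), against 0.144 and 0.294 CPM in N2, a log2 fold change of 3.32 ± 0.34 (adjusted p 4.99e-06). For cyp-34A2, 3.38 and 3.47 CPM in hira-1(-) adults stood against 0.912 and 0.933 CPM in N2 adults (1.88 ± 0.25, adjusted p 4.02e-05), and 1.56 and 2.36 CPM in hira-1(-) L4 larvae against 0.684 and 0.573 CPM in N2 L4 larvae (1.61 ± 0.28, adjusted p 0.000291). All of these mutant libraries lay above the N2 libraries of their stage.

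The gene cyp-33C7 was 1.13 ± 0.12 higher on the log2 scale in adults (9.20 and 9.38 CPM in hira-1(-), 4.38 and 4.09 CPM in N2, adjusted p 6.08e-06). Its L4 increase of 0.37 (10.7 and 10.9 CPM in hira-1(-), 8.32 and 8.38 CPM in N2, adjusted p 0.0107) was lost without any of the 4 L4 libraries or without N2 adult replicate 1, with adjusted p between 0.0512 and 0.148. The gene cyp-14A5 was higher by 0.95 ± 0.14 in adults (20.8 and 19.7 CPM in hira-1(-), 12.4 and 8.68 CPM in N2) and by 0.82 ± 0.13 at L4 (21.2 and 21.9 CPM in hira-1(-), 11.7 and 12.6 CPM in N2). For cyp-34A7, 1.08 and 1.24 CPM in hira-1(-) adults stood against 0.0835 and 0.144 CPM in N2 adults (log2 fold change 3.28 ± 0.50, adjusted p 0.000184). At L4 it had no count in N2 and 6 counts over both hira-1(-) libraries, so no fold is given there, and its L4 call as higher rests on these 6 counts.

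The genotype difference depended on the stage for 24 of the 64 genes tested, 17 with an adult log2 fold change above that at L4 and 7 with one below it, while 50.4% of all genes passed that test, 20.7% and 29.7% in these directions. The P450 share of 37.5% was thus below the background. The smallest adjusted p-values belonged to cyp-31A2, cyp-31A3, cyp-37B1, cyp-31A5, cyp-34A9 and cyp-32B1. For cyp-37B1, hira-1(-) adults had 8.16 and 9.46 CPM, against 1.38 and 0.897 CPM in N2 adults, while L4 larvae had 9.98 and 10.01 CPM in hira-1(-) and 9.80 and 9.04 CPM in N2. In N2 the gene was low in adults, and in hira-1(-) adults it stood close to its L4 level, so that the log2 fold change was 2.97 ± 0.19 in adults (adjusted p 4.48e-08), 0.09 ± 0.13 at L4 (adjusted p 0.610) and their difference 2.88 (adjusted p 6.41e-07). The gene cyp-32B1 had the same pattern, with 6.97 and 7.73 CPM in hira-1(-) adults, against 1.92 and 1.90 CPM in N2 adults, and 7.92 and 8.65 CPM in hira-1(-) L4 larvae, against 8.57 and 7.35 CPM in N2 L4 larvae. Its log2 fold change was 1.94 ± 0.16 in adults (adjusted p 6.24e-07), 0.06 at L4 (adjusted p 0.729) and the difference 1.88 (adjusted p 1.02e-05).

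The gene cyp-34A9, found downstream of DAF-16 like cyp-35B1, changed in opposite directions. It had 4.98 and 7.05 CPM in hira-1(-) adults, against 2.71 and 3.01 CPM in N2 adults, and 10.6 and 12 CPM in hira-1(-) L4 larvae, against 27.2 and 22.9 CPM in N2 L4 larvae. The genotypes did not overlap at either stage, and the log2 fold change was 1.06 ± 0.19 in adults (adjusted p 0.000518), -1.14 ± 0.14 at L4 (adjusted p 1.67e-05) and the difference 2.21 (adjusted p 8.72e-06). The gene cyp-42A1 had a like pattern of smaller size, at 4.12 and 5.37 CPM in hira-1(-) adults, against 3.01 and 3.52 CPM in N2 adults, and 35.7 and 35.1 CPM in hira-1(-) L4 larvae, against 46.1 and 45.3 CPM in N2 L4 larvae. Its log2 fold change was 0.53 in adults (adjusted p 0.00818) and -0.37 at L4 (adjusted p 0.00373). The adult call of cyp-42A1 was lost without hira-1(-) adult replicate 2 (0.33, adjusted p 0.123) or N2 adult replicate 1 (0.37, adjusted p 0.0884), and the L4 call with limma on the deposited log2 FPKM (-0.22, adjusted p 0.105). The gene cyp-33C5 was lower at L4 (1.53 and 1.10 CPM in hira-1(-), 3.61 and 4.19 CPM in N2, log2 fold change -1.57 ± 0.23, adjusted p 7.19e-05), with no call in adults (0.52, adjusted p 0.120).

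At L4 the largest increase was in cyp-13B2, on the X chromosome. Its libraries held 1.12 and 1.72 CPM in hira-1(-) L4 larvae, against 0.0360 and 0.110 CPM in N2 L4 larvae, while adults had 2.74 and 2.79 CPM in hira-1(-) and 2.84 and 3.34 CPM in N2. The L4 log2 fold change was 4.20 ± 0.49 (adjusted p 8.64e-06), that in adults -0.16 (adjusted p 0.558), and the difference -4.37 (adjusted p 2.95e-05). The L4 value was 3.52 without N2 L4 replicate 1 and 5.04 without N2 L4 replicate 2.

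The CYP31A genes, of which cyp-31A2 and cyp-31A3 are needed with the reductase gene emb-8 for lipids of the eggshell, were higher in hira-1(-) at L4. For cyp-31A2, 28.9 and 29.5 CPM in hira-1(-) L4 larvae stood against 10.9 and 10.1 CPM in N2 L4 larvae, a log2 fold change of 1.48 ± 0.06 (adjusted p 1.42e-09). For cyp-31A3, 33.1 and 29.3 CPM in hira-1(-) L4 larvae stood against 11.7 and 11.1 CPM in N2 L4 larvae, a log2 fold change of 1.45 ± 0.08 (adjusted p 9.00e-09). The gene cyp-31A5 was higher by 1.04 ± 0.10 and cyp-31A1, annotated as a pseudogene, by 0.72 ± 0.09 at L4.

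In adults the differences of these genes were small. The libraries of cyp-31A2 held 100 and 96.8 CPM in hira-1(-) adults, against 115 and 116 CPM in N2 adults (log2 fold change -0.23 ± 0.05, adjusted p 0.00185), and those of cyp-31A3 held 65.1 and 68.2 CPM in hira-1(-) adults, against 73.7 and 70.6 CPM in N2 adults (-0.11 ± 0.07, adjusted p 0.156). With library totals the adult values were -0.02 for cyp-31A2 and -0.05 for cyp-31A5 and neither passed, and cyp-31A5 (-0.25, adjusted p 0.00996) also lost its call without hira-1(-) adult replicate 1 (adjusted p 0.105) or N2 adult replicate 2 (0.0735). The difference between stages passed for cyp-31A2 (-1.71 ± 0.08), cyp-31A3 (-1.56 ± 0.10) and cyp-31A5 (-1.30 ± 0.12), with adjusted p 4.18e-09, 8.74e-08 and 1.93e-06. The pseudogene cyp-31A1 stood apart from the other 3, since it was higher in hira-1(-) adults too (18.9 and 18.6 CPM, against 11.3 and 9.52 CPM in N2 adults, log2 fold change 0.85 ± 0.10, adjusted p 1.41e-05). Estimates of all 4 CYP31A genes were not whole in any of the 8 libraries, so reads were divided between near relatives and the split among the 4 is uncertain, while their sum is less so. That sum was 227 and 230 CPM in hira-1(-) adults, against 251 and 252 CPM in N2 adults, and 99 and 105 CPM in hira-1(-) L4 larvae, against 44.4 and 46.7 CPM in N2 L4 larvae.

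**Figure D4:**
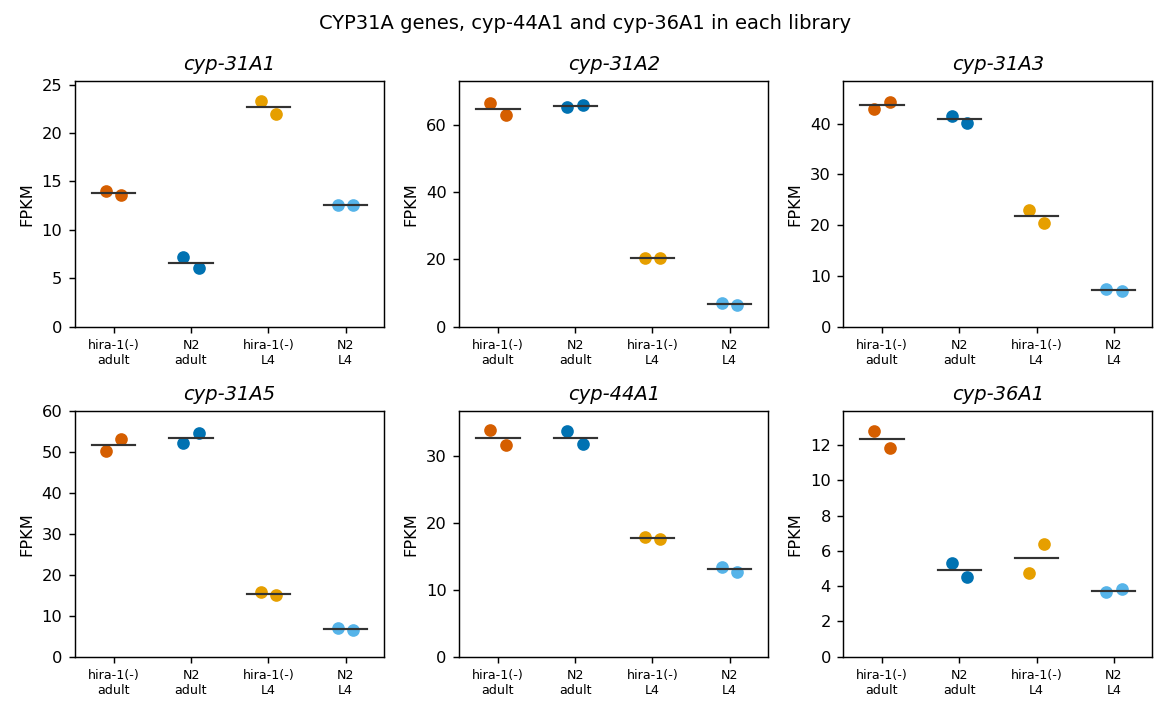
Level in FPKM (linear axis from 0) of the 4 CYP31A genes, cyp-44A1 and cyp-36A1, 1 point for each library and a line at the mean of each group, with hira-1(-) adults, N2 adults, hira-1(-) L4 and N2 L4 from left to right. The hira-1(-) L4 points of cyp-31A2, cyp-31A3, cyp-31A5 and cyp-44A1 lie above the N2 L4 points while the adults are close together on this scale, which has no TMM factor; cyp-31A1 and cyp-36A1 are higher in hira-1(-) adults too.

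Oocyte markers moved with the CYP31A genes. All 8 oocyte genes were higher in hira-1(-) at L4 (summed level 1118 to 1148 CPM, against 274 to 339 CPM in N2), with a median log2 fold change of 1.88, and none of them was at 0. In adults 1 was lower and 0 were higher by the quasi-likelihood test, with 0 higher at an unadjusted p under 0.05, 0 with DESeq2 and 2 with limma (6498 to 6660 CPM in hira-1(-), 6631 to 6928 CPM in N2). Of 10 germ line genes, 4 were higher and 1 lower in hira-1(-) adults, and 9 were higher at L4. The part of oocyte number or timing in the CYP31A values was not tested. The gene cyp-44A1 had 24.7 and 24.6 CPM in hira-1(-) L4 larvae, against 20.6 and 19.2 CPM in N2 L4 larvae (log2 fold change 0.31 ± 0.07, adjusted p 0.00250), and 49.4 and 47.1 CPM in hira-1(-) adults, against 57.3 and 53.6 CPM in N2 adults (-0.20 ± 0.07, adjusted p 0.0203). The L4 call of cyp-44A1 was lost without N2 L4 replicate 2 (adjusted p 0.161), and the adult value was 0.0077 with library totals, so its adult direction depended on the scaling. It overlaps npp-24 on the same strand in the WBcel235 annotation, and reads of the overlap cannot be assigned.

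Between stages, more P450 genes were lower than higher in adults relative to L4 in either genotype. In hira-1(-) 30 were lower and 16 higher in adults, and in N2 37 were lower and 12 higher, while 74.4% of all genes passed this test in hira-1(-) (38.4% lower, 36% higher) and 81.6% in N2 (43.4% lower, 38.2% higher). The median log2 fold change of adults over L4 was -0.30 in hira-1(-) and -0.73 in N2, against -0.08 and -0.15 over all genes. All 9 tested CYP35 genes were lower in adults in both genotypes. In hira-1(-), the call of cyp-35B2 (-1.17, adjusted p 0.0431) was lost without any of the 4 hira-1(-) libraries or either N2 adult library (adjusted p 0.0621 to 0.157). For cyp-35A2 the change from larva to adult was -1.17 in hira-1(-) and -1.33 in N2, and for cyp-35A3 it was -3.33 in hira-1(-) and -3.24 in N2.

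Some of the deepest stage decreases were in genes with very few counts in adults. In N2, cyp-35A1 had 3 counts over both adult libraries, against 96 at L4, a 30.2-fold lower level with a 95% counting interval of 10 to 149. In hira-1(-) its log2 fold change was -4.63, at 0.0386 and 0.153 CPM in adults and 1.85 and 2.96 CPM at L4, and it was -3.96 without hira-1(-) adult replicate 1 and -5.86 without hira-1(-) adult replicate 2. The gene cyp-42A1, among the 3 highest P450 genes at L4, kept at least 3.01 CPM in every adult library and had a log2 fold change of -2.90 in hira-1(-) and -3.80 in N2. That of cyp-13A12 in N2 was -3.92. The gene cyp-23A1 fell equally in both genotypes, with -2.84 in hira-1(-) and -2.82 in N2, and it had no genotype call at either stage. Of low genes, cyp-33C12 had 1 count in N2 adults and 17 at L4 (16-fold lower, interval 2.51 to 670), and cyp-33D3 none in N2 adults and 12 at L4 (at least 1.88-fold lower).

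In both genotypes adults had more RNA than L4 larvae for 3 of the 4 CYP31A genes and less for 1. For cyp-31A2 the log2 fold change was 1.75 in hira-1(-) and 3.46 in N2, for cyp-31A5 1.84 in hira-1(-) and 3.14 in N2, and for cyp-31A3 1.10 in hira-1(-) and 2.66 in N2. The lower member was the pseudogene cyp-31A1, at -0.63 in hira-1(-) and -0.76 in N2. The increase of cyp-13B2 in adults was 0.96 in hira-1(-) and 5.33 in N2, where it was 4.67 without N2 L4 replicate 1 and 6.19 without N2 L4 replicate 2. For cyp-34A7 it was 3.47 in hira-1(-), while the N2 counts were at the floor. The oxygen-pathway gene cyp-36A1 was higher in adults by 1.24 in hira-1(-) and 0.55 in N2, and the N2 call was lost without N2 adult replicate 1 (0.36, adjusted p 0.0785). In hira-1(-), cyp-13A5 was also higher in adults (1.24), while in N2 it was lower without passing (-0.91, adjusted p 0.0822).

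The order of P450 genes along the chromosomes was compared with their changes. By the order of genes in the WBcel235 annotation, 41 of the 80 genes stand directly beside another P450 gene, in 12 runs of which the longest has 8 members. At L4 4 of the 12 runs held both a higher and a lower gene (4 at an unadjusted p under 0.05, 1 with DESeq2 and 4 with limma). In adults 0 runs did by the quasi-likelihood test, 1 at an unadjusted p under 0.05, 0 with DESeq2 and 1 with limma. The run from cyp-13A2 to cyp-13A8 on chromosome II had 3 higher genes in adults and 4 at L4 among 5 tested, and no gene of it passed as lower. The run from cyp-35A5 to cyp-35B3 on chromosome V had 3 lower genes at L4 and 1 in adults. One of the runs with both directions at L4 held cyp-14A1 (higher by 1.10 ± 0.21, at 4.50 and 4.62 CPM in hira-1(-) and 2.05 and 2.21 CPM in N2) beside cyp-14A2 (lower by 4.47). In the others cyp-33C7 shared a run with cyp-33C5, cyp-34A9 with cyp-34A5 and cyp-34A7, and cyp-25A3 (0.42) with cyp-25A1 and cyp-25A2. Of the higher genes in these 4 runs, all but cyp-14A1 lost their call without N2 L4 replicate 1 (adjusted p 0.213 for cyp-25A3, 0.148 for cyp-33C7, 0.191 for cyp-34A5 and 0.112 for cyp-34A7) or N2 L4 replicate 2 (0.150, 0.122, 0.230 and 0.109). Without hira-1(-) L4 replicate 1 the calls of cyp-25A3, cyp-33C7 and cyp-34A5 were lost (0.122, 0.0512 and 0.133), and without hira-1(-) L4 replicate 2 those of all 4 (0.0716, 0.0725, 0.119 and 0.112). Neighbours are also near relatives that can share reads, and the sources used here do not state whether counting used the strand. In that annotation 16 of the 74 P450 genes searched overlap another gene, 8 of them a protein-coding gene. These 8 are cyp-31A5, cyp-33C11, cyp-33E3, cyp-36A1, cyp-37A1, cyp-37B1, cyp-43A1 and cyp-44A1, and the overlap is on the opposite strand for all but cyp-44A1. The remaining P450 rows were not searched. Overlaps with piRNA, tRNA, snoRNA, miRNA, snRNA and rRNA genes were not counted.

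**Figure D5:**
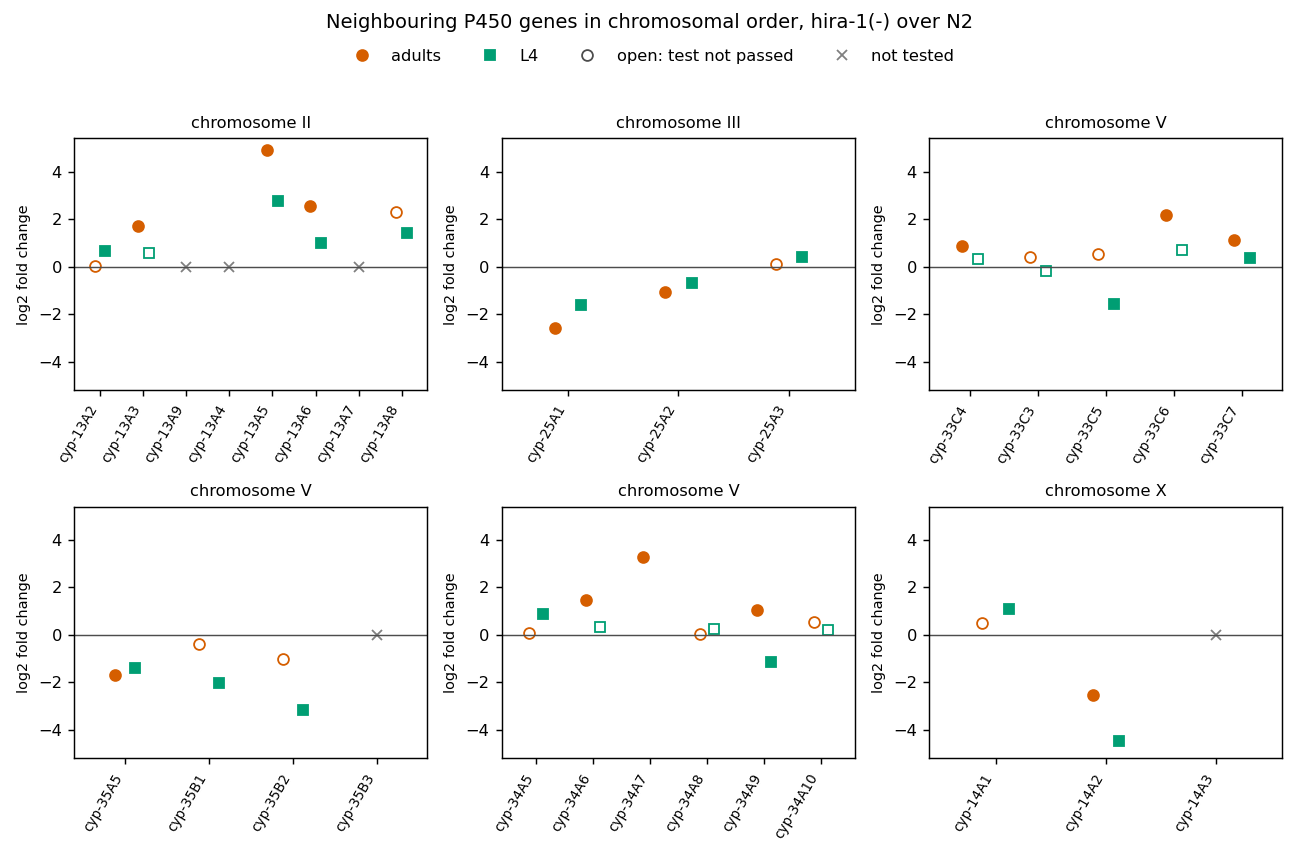
Log2 fold change of hira-1(-) over N2 (linear axis) for 6 runs of neighbouring P450 genes in their chromosomal order, with adults as circles and L4 as squares; filled symbols passed the test, open symbols did not, and a cross at 0 marks a gene with too few counts to test, which has no value. The cyp-13A run lies at or above 0, and cyp-14A2 lies far below 0 beside cyp-14A1; the L4 value of cyp-34A7 is not drawn.

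The genes that serve or regulate P450 enzymes were measured alongside. Of 4 electron donor genes, 3 were lower in hira-1(-) adults and 2 at L4, while 26.5% and 22.6% of all genes were lower. By the quasi-likelihood test 0 of the 4 were higher at either stage. The higher genes also numbered 0 at an unadjusted p under 0.05 and with DESeq2, while limma called 1 in adults and 0 at L4. The reductase gene emb-8 had 137 and 139 CPM in hira-1(-) L4 larvae, against 180 and 187 CPM in N2 L4 larvae (log2 fold change -0.41 ± 0.05, adjusted p 7.75e-06). In adults emb-8 had 152 and 148 CPM in hira-1(-) and 166 and 167 CPM in N2, a log2 fold change of -0.15 that was 0.0545 with library totals and lost its call without hira-1(-) adult replicate 2 (adjusted p 0.0983) or N2 adult replicate 2 (0.0593). The largest difference of this list was in hpo-19, which encodes a cytochrome b5 reductase, at 160 and 157 CPM in hira-1(-) adults, against 270 and 272 CPM in N2 adults (-0.77 ± 0.05).

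Of the sterol hormone genes, daf-9, a P450 gene under another name that makes dafachronic acid, had 3.60 and 4.64 CPM in hira-1(-) adults, against 2.09 and 2.30 CPM in N2 adults (log2 fold change 0.90 ± 0.20, adjusted p 0.00213). At L4 daf-9 had 5.92 and 7.17 CPM in hira-1(-), against 3.84 and 3.20 CPM in N2 (0.89 ± 0.18, adjusted p 0.000755). Its libraries did not overlap at either stage. Of the 4 tested genes of the list, 3 were higher and 1, the oxygenase gene daf-36, lower in adults (-0.77), and 2 were higher and 1, again daf-36, lower at L4 (-0.33). The fifth, hsd-1, was at 0 in all 8 libraries. Of all genes tested, 28.6% were higher and 26.5% lower in adults, and 35.5% were higher and 22.6% lower at L4. The L4 call of daf-36 was lost with library totals (-0.19, adjusted p 0.0881) and with limma on the deposited log2 FPKM (-0.18, adjusted p 0.0895).

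Of 11 transcription regulators linked to P450 genes, 3 were higher and 0 lower in adults (1 lower at an unadjusted p under 0.05, 0 with DESeq2 and 0 with limma), and 3 were higher and 1 lower at L4. Of all genes, 28.6% were higher in adults and 35.5% at L4, so the shares of higher regulators were not above the background. The higher ones in adults were mdt-15, a Mediator subunit needed for responses to foreign compounds (0.43 ± 0.06), skn-1, the Nrf-like detoxification factor (0.24 ± 0.05), and the aryl hydrocarbon receptor gene ahr-1 (1.15 ± 0.40). The ahr-1 call was lost without hira-1(-) adult replicate 1 (1.24, adjusted p 0.0539), hira-1(-) adult replicate 2 (1.05, 0.105) or N2 adult replicate 2 (0.70, 0.215), and the DESeq2 value had an adjusted p of 0.178. The higher ones at L4 were nhr-49 (0.22), nhr-86 (0.17, adjusted p 0.0498) and skn-1 (0.19). All 3 calls were lost without N2 L4 replicate 1 (log2 fold changes 0.11, 0.07 and 0.12), N2 L4 replicate 2 (0.10, 0.05 and 0.05) or N2 adult replicate 1 (0.11, 0.06 and 0.09). That of nhr-86 was lost whichever library was left out. It was also lost with RLE scaling (adjusted p 0.0946), DESeq2 (0.263) and the replicate block (0.0615). The one lower at L4 was nhr-176 (5.18 and 5.22 CPM in hira-1(-), 7.49 and 7.53 CPM in N2, -0.53 ± 0.13, adjusted p 0.00339), the nuclear receptor through which thiabendazole induces cyp-35D1.

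In the HIF-1 oxygen-sensing pathway, in which cyp-36A1 acts, 3 of 6 genes were lower and 0 higher in adults, and 5 were lower and 0 higher at L4. At an unadjusted p under 0.05, with DESeq2 and with limma 0 of them were higher at either stage. The largest of these was the L4 decrease of cysl-2, a gene induced by HIF-1 (53.0 and 57.6 CPM in hira-1(-), 190 and 208 CPM in N2, log2 fold change -1.85 ± 0.13, adjusted p 2.99e-05). Over all genes, 26.5% were lower in adults and 22.6% at L4. The 3 genes lower in adults were egl-9 (-0.53), vhl-1 (-0.41) and rhy-1 (-1.05). Adult hif-1 had no call (-0.13, adjusted p 0.0600), although DESeq2 called it and cysl-2 lower (0.0229 and 0.00122). RLE scaling (0.0112 and 0.0405) and the replicate block (0.0436 and 0.000601) also called both lower. A lower call of hif-1 was also made with no filter (0.0450) and with the adult groups alone (0.0457). Adult vhl-1 (adjusted p 0.0434) missed the threshold under DESeq2 (0.0872), limma (0.233), the replicate block (0.0518) and library totals (0.299). Its adult call was also lost when any hira-1(-) library or N2 adult replicate 1 was left out. At L4 vhl-1 lost its call with DESeq2 (0.0570), and cysl-1 with library totals (0.0992) and limma (0.113). The gene rhy-1, with no call at L4, was called lower there with RLE scaling (0.0489) and with no filter (0.0422). The counts do not sort genes by role, so they give no direction for the pathway. The gene cyp-36A1 itself was higher in hira-1(-), with 21.5 and 20.3 CPM in hira-1(-) adults, against 10.4 and 8.82 CPM in N2 adults (1.12 ± 0.13, adjusted p 1.61e-05). At L4 it had 7.56 and 10.2 CPM in hira-1(-), against 6.49 and 6.65 CPM in N2 (0.43 ± 0.15, adjusted p 0.0225). The adult groups were far apart, while the L4 call was lost without hira-1(-) L4 replicate 2 (0.20, adjusted p 0.332), without either N2 L4 library (adjusted p 0.161 and 0.0996) or without N2 adult replicate 1 (0.0766).

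The other members can be given by their ranges. Genes higher in adults with no call at L4 were, beside cyp-37B1 and cyp-32B1, cyp-34A6 (log2 fold change 1.46 ± 0.21, at 3.19 and 2.90 CPM in hira-1(-) adults and 1.19 and 1.05 CPM in N2 adults), cyp-33C4 and cyp-32A1 (both 0.86), and 3 genes under 1 CPM, cyp-13A3 (1.72), cyp-29A4 (2.53) and cyp-33C6 (2.17). The adult call of cyp-29A4 was lost without hira-1(-) adult replicate 2 (adjusted p 0.0607) or N2 adult replicate 1 (0.0554), and its value was 3.35 without N2 adult replicate 2. That of cyp-33C6 was lost without hira-1(-) adult replicate 1 (1.41, adjusted p 0.211) or either N2 adult library (0.0851 and 0.0725). The adult call of cyp-32A1 was lost without N2 adult replicate 2 (adjusted p 0.0742). Genes higher at L4 only included cyp-13B1 (0.69 ± 0.15) and, under 1 CPM, cyp-34A5 (0.87) and cyp-34A1 (2.80), of which cyp-34A5 lost its call without any of the 8 libraries and cyp-34A1 without hira-1(-) L4 replicate 1 (2.37, adjusted p 0.0664). Lower at L4 only were also cyp-29A2, a gene inducible by foreign compounds (15.1 and 14.2 CPM in hira-1(-), 24.3 and 25.5 CPM in N2, -0.76 ± 0.09, adjusted p 1.36e-05), and cyp-14A4 (-1.10 ± 0.27), which lost its call without hira-1(-) L4 replicate 2 (adjusted p 0.0507). The 16 genes not tested had at most 0.428 CPM in any library. Among them were cyp-13A7, known for its induction by rifampicin, cyp-25A6, which was at 0 in all 8 libraries, and the pseudogenes cyp-13A9, cyp-25A5, cyp-29A1, cyp-34A3 and cyp-35D2. The others were cyp-13A4, cyp-13A11, cyp-14A3, cyp-33B1, cyp-33C1, cyp-33C2, cyp-33C11, cyp-33D1 and cyp-35B3.

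Markers of tissues other than the intestine and the germ line differed between the groups as well. Of 8 hypodermal genes, 7 were higher in hira-1(-) adults (summed level 394 to 410 CPM, against 135 to 138 CPM in N2 adults), and 1 was higher and 5 lower at L4 (3854 to 3966 CPM, against 8764 to 8828 CPM in N2). Of 8 sperm genes, 7 were lower in adults, and 6 were higher and 1 lower at L4. The list of 6 genes of body wall muscle had 4 higher and 1 lower in adults, and 5 lower at L4. Of 6 neuronal genes, 1 was higher and 1 lower in adults and 1 higher and 2 lower at L4. Of the 6 yolk genes, 5 were lower in adults and 6 at L4. In the directions not given for these lists no gene passed the quasi-likelihood test, and none did at an unadjusted p under 0.05, with DESeq2 or with limma. No gene of these lists was at 0 in all libraries, and their part in the P450 differences was not tested.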

How the data were processed

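Per the labels' protocols, libraries were made from poly(A)-selected RNA and read as paired ends. The authors deposited estimated counts per gene (expected counts, as RSEM writes them) and log2 values of FPKM plus 1. The submitters' processing notes list RSEM 1.2.15, Bowtie 1.0.1, SAMtools 0.1.19 and the build ce10. Whether counting used the strand is not stated there. RSEM splits reads with several matches by a statistical model, which makes values of near relatives uncertain.

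Each table has 18 columns. Of these, 8 match the label of 1 sample each, of which 1 name has a digit in place of a letter, and the other 10 match none and were not used. L1 was therefore not analysed here. The designs, written for all libraries, were fitted to these 8 libraries.

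Gene names, biotypes, overlaps and neighbours come from a RefSeq table and annotation of WBcel235, which is not the build the files use, and no coordinates are printed. Of the rows, 44080 matched the table, and all 80 P450 names in it were found.

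For the test, estimated counts were rounded to integers. edgeR 4.0.16 (R 4.3.3) was used with TMM scaling, its expression filter (minimum count 10, total 15) and a robust quasi-likelihood fit of 4 group means without a replicate block, which leaves 4 residual degrees of freedom. P-values were adjusted over all 16770 genes by the Benjamini-Hochberg method, and an adjusted p with no other tool named is from this fit. The common biological coefficient of variation was 6.26%. The SE of a log2 fold change was taken as its size over the root of the F statistic. The scripts were tested on simulated data.

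Library totals were 26010307 to 31174599, and 3 counts, the limit that a count of 0 allows, correspond to 0.0991 to 0.125 CPM per library. Where a group was at 0, the bound uses 3 counts in each of its libraries. Ratios with 1 to 3 counts in a group have exact 95% binomial intervals, which cover counting error only. Estimates within 0.005 of an integer were taken as whole.

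Genes named with values were the 10 largest changes per direction in each genotype comparison (past the threshold, libraries not overlapping, mean of 1 CPM or more in whichever genotype was higher), the 6 smallest adjusted p-values for the interaction, the 5 largest per direction between stages, the 5 highest FPKM per group, and a short list of genes with known roles. Other members named beyond this rule complete the account of the family and were chosen after their values were seen. The members, the lists and the tests were chosen with earlier results of these data known.

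Other settings tried were scaling by RLE or by library totals alone, dropping the filter or replacing it by 1 CPM in 2 libraries, DESeq2 1.42.0, limma 3.58.1 on the deposited log2 FPKM, the replicate block, a fit of the compared groups alone, and leaving out each library. The counts of replicates differed beyond sampling noise (chi-square over degrees of freedom 5.44 to 17.9), and each was kept as a sample of its own. The values do not show whether replicates were separate cultures.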

Additional observations from a re-analysis of the deposited data

Results flagged for a closer look

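The genotype difference of 24 P450 genes differed between the stages by the interaction term of the quasi-likelihood fit, given here as the adult minus the L4 log2 fold change of hira-1(-) over N2. The largest positive values among genes with counts in every group were those of cyp-13A12 (3.10), cyp-37B1 (2.88), cyp-34A9 (2.21), cyp-35B2 (2.14), cyp-13A5 (2.14) and cyp-33C5 (2.09). They were followed by cyp-14A2 (1.92), cyp-32B1 (1.88), cyp-14A4 (1.81), cyp-35B1 (1.64), cyp-13A6 (1.56) and cyp-34A6 (1.14). Smaller positive values were those of cyp-42A1 (0.90), cyp-33C7 (0.77), cyp-36A1 (0.69) and cyp-29A2 (0.52). The value of cyp-33D3 (5.93) depends on the prior count of the fit, since both N2 adult libraries were at 0, and it did not pass with limma on the deposited log2 FPKM (0.33, adjusted p 0.0661).

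Negative values, with the L4 log2 fold change above the adult one, were those of cyp-13B2 (-4.37), cyp-31A2 (-1.71), cyp-31A3 (-1.56), cyp-31A5 (-1.30), cyp-25A1 (-0.97), cyp-13A2 (-0.62) and cyp-44A1 (-0.51). Among these 24, the cyp-13A6 value (adjusted p 0.0488) was lost with RLE scaling, with no filter, with DESeq2, with limma and in 7 of the 8 fits with a library left out. The cyp-36A1 value was lost without hira-1(-) L4 replicate 1 (0.49, adjusted p 0.0609) or N2 adult replicate 2 (0.57, adjusted p 0.0573), and the cyp-14A4 value without hira-1(-) L4 replicate 2 or any of 3 adult libraries (adjusted p 0.0543 to 0.0803).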

How the results depend on the processing

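The counts of P450 genes that passed stayed within 1.5 times their value under every alternative, with 1 exception: the 17 lower genes in adults were 11 with library totals and 10 with limma on the deposited log2 FPKM, while the higher genes were 28 and 25. Leaving out each library gave 31 to 40 genes in adults (18 to 22 higher, 13 to 19 lower), 40 to 46 at L4 (17 to 23 higher, 21 to 23 lower), 22 to 27 for the difference between stages, 38 to 46 between stages in hira-1(-) and 46 to 49 in N2. The direction of 4 genes turned: cyp-44A1 in adults (0.0077 with library totals, 0.0011 with limma), emb-8 in adults (0.0545 with library totals, 0.0583 with limma), and the differences between stages of cyp-13A6 (-0.23 with limma, adjusted p 0.213) and cyp-34A7 (0.64 with limma, adjusted p 0.00182). The cause was not tested. Same-numbered libraries did not deviate together (correlation 0.066 in adults and -0.003 at L4). Each value rests on 1 difference between libraries per genotype, so it cannot show whether the labels' numbers pair them. A fit with the replicate block gave 39 genes in adults (21 higher, 18 lower), 45 at L4 (22 higher, 23 lower) and 24 for the difference between stages. Limma on log2(FPKM + 1) gave smaller changes for low genes by its construction. With 2 libraries a group, several differences of genes under about 1 CPM were not stable. Calls of some genes at higher levels, such as cyp-35C1 and cyp-44A1 at L4, were also lost when 1 library was left out.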
